A study of Mus musculus with 12 samples.

Results

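The genes examined were the integrin and cadherin genes of the mouse lung, chosen by symbol among the protein-coding genes of the deposited table as Itga, Itgb or Cdh followed by a subunit number or letter. The rule found 50 of 35275 genes, of which 22026 were protein coding. There were 27 integrin symbols, made up of 18 alpha subunits, 8 beta subunits and Itgbl1, a protein of EGF-like repeats that the symbol rule takes in but that is not an integrin subunit. The other 23 were cadherins. Poly(A) RNA was sequenced from the lungs of 12 male wild-type C57Bl/6J mice, 3 mice each at 3, 6, 12 and 24 months of age. All 12 mice shared sex, strain and genotype, none carried a labelled treatment or allele, and the labels number the libraries as separate samples. The lung tissue was minced before extraction, so the RNA came from all its cell types. In such bulk samples fewer cells of a type and less RNA per cell cannot be told apart.

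Integrins are cell surface receptors that pair 1 alpha with 1 beta subunit and bind matrix proteins such as collagen, laminin and fibronectin, or counter-receptors on other cells. The short cytoplasmic tails of most beta subunits recruit talin and kindlin, which switch the receptor to its binding state and tie it to actin. Cadherins are calcium-dependent adhesion proteins that join cells of like kind at adherens junctions, where their tails bind beta-catenin and p120-catenin. In the lung, E-cadherin (Cdh1) holds the epithelium together, VE-cadherin (Cdh5) the endothelium, and the beta2 integrins serve leukocytes.

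Fold changes at 24 months followed base composition, so the coding ends of 6 beta subunits are shown first. These 6 were picked with earlier results of these data known. Itgb4 and Itgb8, with transcripts of 59.1 and 43.1% GC, were left out. At 24 against 3 months they were called higher and lower, in that order, without correction. Each end shown is the last 60 coding bases of the gene's transcript with the longest coding sequence, from the GENCODE annotation of build mm10. The bases run 5′ to 3′ on the coding strand, with G and C in capitals. They encode the end of that transcript's protein, which other transcripts of the gene need not share. The windows were chr8:128732029-128732088 (+) for Itgb1, chr2:60600485-60600544 (-) for Itgb6, chr10:77565181-77565240 (+) for Itgb2, chr11:104667086-104667145 (+) for Itgb3, chr16:33948773-33948832 (+) for Itgb5 and chr15:102216160-102216219 (-) for Itgb7. Every window lay within 1 exon.
Itgb1: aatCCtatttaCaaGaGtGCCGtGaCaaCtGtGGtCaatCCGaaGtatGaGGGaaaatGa
Itgb6: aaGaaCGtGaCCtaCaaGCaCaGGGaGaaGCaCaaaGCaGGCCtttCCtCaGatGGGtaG
Itgb3: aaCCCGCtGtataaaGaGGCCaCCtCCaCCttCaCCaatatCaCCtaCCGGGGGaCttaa
Itgb2: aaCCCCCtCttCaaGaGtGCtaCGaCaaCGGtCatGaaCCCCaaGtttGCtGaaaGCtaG
Itgb5: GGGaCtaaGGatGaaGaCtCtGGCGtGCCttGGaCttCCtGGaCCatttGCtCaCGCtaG
Itgb7: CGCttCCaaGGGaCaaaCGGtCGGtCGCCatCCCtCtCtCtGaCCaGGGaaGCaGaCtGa
Of the 60 bases, 25 were G or C in Itgb1, 31 in Itgb6, 30 in Itgb2, 31 in Itgb3, 33 in Itgb5 and 36 in Itgb7. The whole coding sequence held 42.6% G and C in Itgb1, 49.5% in Itgb6, 54.7% in Itgb2, 55.0% in Itgb3, 55.8% in Itgb5 and 58.1% in Itgb7. Itgb1 and Itgb6, with the lowest shares of the whole coding sequence, were the 2 of these 6 genes lower at 24 months without correction. The fall of Itgb1 was not called after correction, as given beside its values. The 60-base windows did not follow this order, since Itgb2, which was higher, held 30 and Itgb6 31.

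Libraries held 14.7 to 21.2 M reads assigned to genes, and the 50 genes took 0.351 to 0.486% of them. The 3 libraries of 24 months stood apart from all others: read-weighted GC content was 54.3, 54.5 and 55.9%, against 50.5 to 51.8% in the 9 younger libraries, and mitochondrial genes took 0.443 to 0.629% of reads, against 1.65 to 3.12%. On log2 CPM (counts scaled per M reads), 24-month libraries correlated with 3-month ones at Pearson's r of 0.671 to 0.823, and 3-month libraries with each other at 0.983 to 0.991. No label says whether the ages were processed together, so age and any difference in handling cannot be told apart. Each comparison was therefore fitted without and with a correction that takes out, in each library, the smooth dependence of expression on GC content and gene length. Lung markers fitted the label, since the 6 type 2 alveolar markers summed to 37225 to 44109 CPM at 24 months and 24849 to 29428 CPM at 3 months. CPM here is on library sizes scaled by TMM, which aims to set the bulk of genes level between libraries. TMM factors were 0.521 to 0.826 at 24 months and 1.15 to 1.20 at 3 months. They raise 24-month CPM, and lower 3-month CPM, relative to library totals. Thyroid and parathyroid markers, which the lung should lack, summed to 2.93 to 4.86 CPM at 24 months and 2.15 to 2.89 CPM at 3 months, and heart muscle markers to 645 to 1059.6 CPM at 24 months and 287 to 525 CPM at 3 months. With TMM scaling the median log2 fold change of all genes at 24 against 3 months was -0.29. Relative to that, library totals alone moved the median by -0.71.

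As deposited FPKM, reads scaled by gene length and library, which allow levels of different genes to be compared, Itgb1 and Cdh5 led at 3 months with 244 ± 8.77 and 230 ± 35.0 FPKM (SD, n = 3 mice). Their difference lay within that spread. Cdh1 followed with 106 ± 8.62 FPKM, then Itga3 with 77.5 ± 8.88, Itgb5 with 50.1 ± 2.95, Itga6 with 48.1 ± 8.50, Itgb2 with 40.3 ± 1.19 and Itga8 with 39.3 ± 4.65 FPKM. Neighbours from Itgb5 to Itga8 did not differ beyond their spread. The order at 24 months was another one: Itga3 led with 238 ± 56.9 FPKM, before Itgb5 with 114 ± 11.7, Itga2b with 102 ± 50.5, Itgb2 with 86.1 ± 32.9, Cdh5 with 82.5 ± 32.5 and Itgb7 with 71.6 ± 29.5 FPKM. From Itgb5 down these neighbours overlapped. FPKM is uncorrected and carries the base composition of the genes, and no order was made of corrected levels. With correction the log2 fold changes at 24 against 3 months were -0.06 for Itgb1, 0.56 for Itga3 and 0.32 for Itgb5. Without it they were -2.58, 2.47 and 1.96. Of the 50 genes, 31 averaged at least 1 FPKM over the 12 libraries.

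At 24 against 3 months most integrins and cadherins differed, in both directions, as did most genes of the lung. By edgeR's quasi-likelihood test at an adjusted p under 0.05, 21 of the 40 tested members were called higher and 16 lower, and 3 were not called. Over all 16042 genes tested, 38.2% were called higher and 44.6% lower, and the members' shares were 52.5% and 40%. After correction 14 members were called higher and 10 lower, against a background of 30% and 26.6%. The median log2 fold change of the members was 0.85 uncorrected and 0.24 corrected, against -0.29 and 0.01 over all genes. The correction centres each library, so the 0.01 over all genes lies near 0 by construction. In both fits and in the same direction 22 members were called. Those higher were Itgb2, Itgb3, Itgb4, Itgb5, Itgb7, Itgal, Itgax, Itgad, Itga2b, Itga5, Itga3, Itga7, Cdh3 and Cdh26, and those lower were Itgb6, Itgav, Itga6, Itga9, Itgae, Cdh1, Cdh5 and Cdh11. Cdh16 and Cdh24 were called in opposite directions by the 2 fits, and 13 members were called only without correction. By the adjusted p of the authors' deposited table, members numbered 21 higher and 15 lower, against 33.2% and 36.2% of its genes, and 35 of these calls matched those made here. The values of 24 months did not overlap those of 3 months in 37 of the 40 tested members, and in 84.4% of all tested genes.

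**Figure D1:**
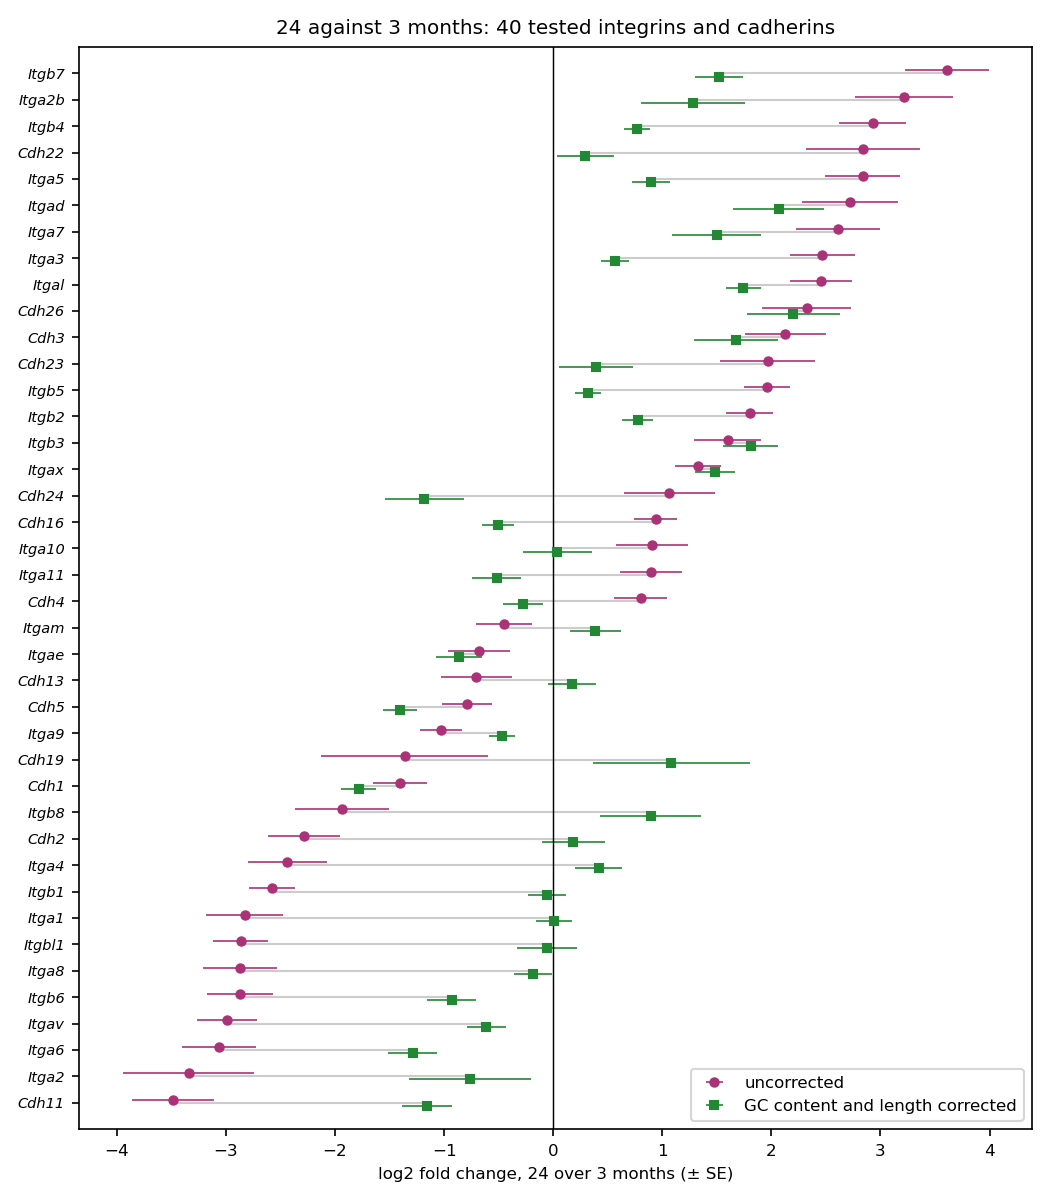
Log2 fold change, 24 over 3 months, of the 40 tested integrins and cadherins, without (circles) and with (squares) correction for GC content and gene length; bars are the SE over 3 mice per age and grey lines join the values of a gene. Itgb1 sits at -2.58 uncorrected and -0.06 corrected, while Itgax, Itgb3 and Cdh26 hardly move between the fits.

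In uncorrected values the beta subunits exchanged ranks at 24 months. Itgb1, the partner of most alpha subunits, had 773, 782 and 834 CPM at 3 months, 759, 753 and 798 CPM at 6 months, 586, 548 and 847 CPM at 12 months and 144, 120.4 and 136 CPM at 24 months. The 3 oldest mice all lay far below the other 9. Its log2 fold change at 24 against 3 months was -2.58 ± 0.21 (SE; adjusted p = 8.12e-08) in edgeR's test, yet -0.06 ± 0.17 (adjusted p = 0.794) after correction, so the fall was called only without it. Leaving out each mouse in turn, 1 of 6 corrected fits called Itgb1 lower, with an adjusted p of 0.00739. Itgb5, which with alpha v binds vitronectin, measured 139.9, 131 and 126 CPM at 3 months, 125, 158 and 123 CPM at 6 months, 187, 173 and 161 CPM at 12 months and 407, 513 and 625 CPM at 24 months, without overlap between 24 and 3 months. It was higher by 1.96 ± 0.21 (SE; adjusted p = 6.31e-07) in edgeR's test and by 0.32 ± 0.12 (adjusted p = 0.0319) after correction, and the corrected call held in 2 of 6 fits that left out a mouse.

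Itgb7, which pairs with alpha 4 or alpha E on lymphocytes, had the largest uncorrected rise of the beta subunits at 24 months. Its levels were 26.8, 24.9 and 22.4 CPM at 3 months, 34.4, 35.5 and 25.2 CPM at 6 months, 42.6, 42.4 and 60.7 CPM at 12 months and 137, 249 and 519 CPM at 24 months. The 24-month mice differed among themselves, but the lowest of them was above every younger mouse. In edgeR's test its log2 fold change was 3.61 ± 0.38 (SE; adjusted p = 6.33e-07), and 1.52 ± 0.22 (adjusted p = 3.91e-05) after correction. Itgb2, the common beta subunit of leukocyte integrins, stood at 101, 103 and 103 CPM at 3 months, 94.0, 104 and 92.4 CPM at 6 months, 122, 139 and 92.0 CPM at 12 months and 329, 449.8 and 289.8 CPM at 24 months, and again no younger mouse reached a 24-month one. Its log2 fold change was 1.80 ± 0.22 (SE; adjusted p = 1.9e-06) by edgeR, and 0.77 ± 0.15 (adjusted p = 0.000423) after correction.

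Itgb4, which joins alpha 6 in hemidesmosomes, had 21.3, 29.0 and 30.5 CPM at 3 months, 35.5, 44.1 and 32.2 CPM at 6 months, 51.6, 62.8 and 57.0 CPM at 12 months and 130.1, 159 and 326 CPM at 24 months. Each of the 12-month mice was also above each of the 3-month mice. At 24 against 3 months the log2 fold change was 2.93 ± 0.31 (SE; adjusted p = 5.58e-07) by edgeR and 0.77 ± 0.12 (adjusted p = 9.12e-05) corrected. Itgb3, the platelet and alpha v partner, gave 45.7, 55.7 and 45.2 CPM at 3 months, 39.3, 46.2 and 41.2 CPM at 6 months, 44.0, 43.6 and 34.5 CPM at 12 months and 108, 248 and 87.2 CPM at 24 months. Only the 24-month values, led by mouse 2, stood above the rest, and the log2 fold change was 1.6 ± 0.31 (SE; adjusted p = 0.000168) by edgeR and 1.81 ± 0.25 (adjusted p = 3.09e-05) corrected. Itgb6, an epithelial subunit that with alpha v activates latent TGF-beta, fell. It measured 41.1, 36.4 and 34.5 CPM at 3 months, 37.9, 26.3 and 29.5 CPM at 6 months, 24.1, 22.2 and 36.9 CPM at 12 months and 7.49, 4.58 and 3.04 CPM at 24 months, with no overlap of the oldest mice with any other, and its log2 fold change was -2.87 ± 0.30 (SE; adjusted p = 5.36e-07) by edgeR and -0.93 ± 0.22 (adjusted p = 0.00258) corrected. Itgb8, another TGF-beta activating partner of alpha v, was scarce, with 1.28, 1.14 and 0.947 CPM at 3 months, 0.935, 1.11 and 1.30 CPM at 6 months, 1.21, 0.940 and 1.46 CPM at 12 months and 0.412, 0.218 and 0.234 CPM at 24 months. The oldest mice were lowest. The fitted log2 fold change was -1.93 uncorrected and 0.89 corrected, and only the uncorrected value passed the test.

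In shares of the summed beta-subunit FPKM, which do not depend on the scaling of a library, Itgb1 held 64.9, 65.4 and 67.8% at 3 months, 65.4, 62.2 and 67.9% at 6 months, 52.5, 50.5 and 63.3% at 12 months and 10.1, 6.17 and 5.98% at 24 months. Itgb7 held 13.7, 18.2 and 32.5% at 24 months and 3.22, 2.97 and 2.60% at 3 months. The share of Itgb5 was 35.3, 32.4 and 33.8% at 24 months, against 14.5, 13.6 and 12.6% at 3 months. The summed beta-subunit FPKM was 308 to 392 at 24 months and 361 to 377 at 3 months. On library totals, which FPKM uses, these ranges overlapped while the makeup differed. Unlike the shares, the sum depends on the scaling of a library. It was not computed with TMM, which raises 24-month levels relative to 3-month ones. These shares carry the base composition of the genes and are given without a test.

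**Figure D2:**
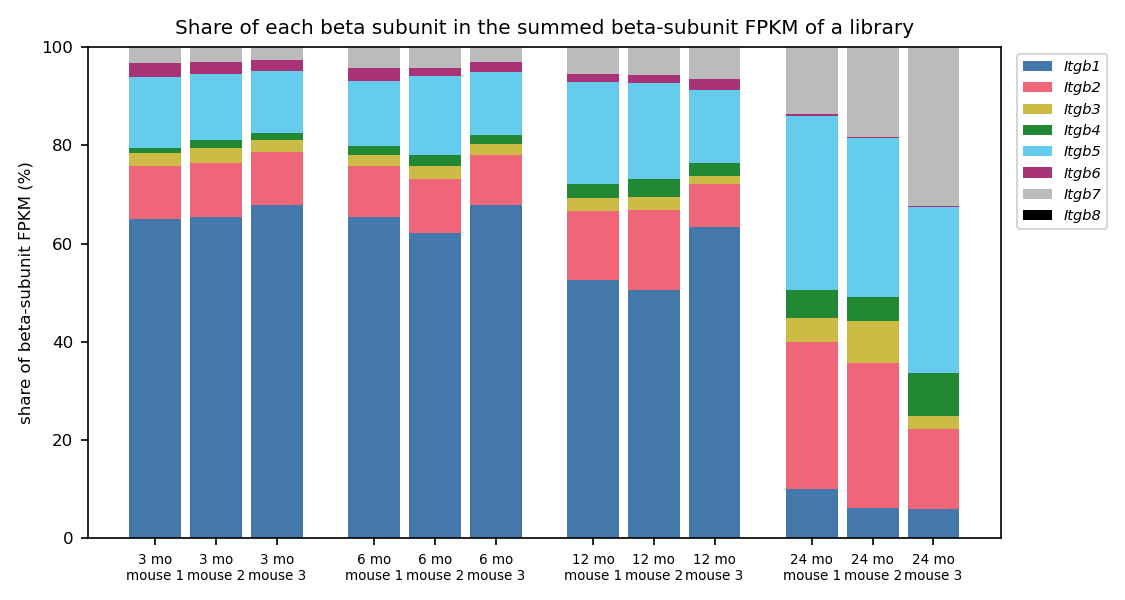
Share of each beta subunit (%) in the summed beta-subunit FPKM of each of the 12 libraries, ordered by age in months. Itgb1 fills 50.5 to 67.9% of every bar up to 12 months and 5.98 to 10.1% of the bars of 24 months, where Itgb5, Itgb2 and Itgb7 take most of the room.

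Among the leukocyte alpha subunits 3 of 5 were called higher at 24 months in both fits and 1 lower. Shares over all tested genes were 38.2% higher and 44.6% lower uncorrected, and 30% and 26.6% corrected. Itgal, the LFA-1 alpha chain that binds ICAM-1, had 49.5, 76.4 and 65.4 CPM at 3 months, 70.3, 74.1 and 62.4 CPM at 6 months, 82.8, 101 and 46.3 CPM at 12 months and 286, 439.5 and 323 CPM at 24 months. All 24-month mice were above all others, and the log2 fold change at 24 against 3 months was 2.45 ± 0.28 (SE; adjusted p = 1.29e-06) by edgeR and 1.74 ± 0.16 (adjusted p = 8.78e-07) corrected. Itgax, the CD11c chain of alveolar macrophages and dendritic cells, had 53.8, 63.9 and 69.5 CPM at 3 months, 60.4, 73.1 and 65.5 CPM at 6 months, 71.1, 78.3 and 53.5 CPM at 12 months and 127, 152 and 189 CPM at 24 months, with the same separation. On the log2 scale its fold change was 1.32 ± 0.21 (SE; adjusted p = 2.87e-05) by edgeR and 1.48 ± 0.18 (adjusted p = 1.14e-05) corrected. Itgad, or CD11d, was low, with 0.744, 1.41 and 1.16 CPM at 3 months, 1.65, 2.47 and 1.66 CPM at 6 months, 1.95, 2.71 and 1.81 CPM at 12 months and 12.6, 5.89 and 3.16 CPM at 24 months. Its 24-month mice lay above all others, and its log2 fold change was 2.72 uncorrected and 2.07 corrected, both called.

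Itgae, the CD103 chain that binds E-cadherin, went the other way, with 4.88, 7.43 and 6.68 CPM at 3 months, 4.68, 4.69 and 5.26 CPM at 6 months, 6.10, 8.13 and 3.74 CPM at 12 months and 3.79, 3.85 and 4.22 CPM at 24 months. At 24 months it lay below the 3-month and 6-month mice, but mouse 3 of the 12-month group was lower still. Its log2 fold change was -0.68 ± 0.28 (SE; adjusted p = 0.0349) by edgeR and -0.87 ± 0.21 (adjusted p = 0.00295) corrected. Without correction 3 of 6 fits that left out a mouse kept this call, the adjusted p was 0.15 without 3-month mouse 2, and DESeq2 did not call it. Itgam, the CD11b chain of monocytes and neutrophils, had 19.5, 28.8 and 26.7 CPM at 3 months, 26.8, 35.2 and 18.1 CPM at 6 months, 17.6, 19.3 and 19.7 CPM at 12 months and 15.8, 24.1 and 14.9 CPM at 24 months. Groups overlapped, and the log2 fold change was -0.45 ± 0.26 (SE; adjusted p = 0.117) by edgeR and 0.39 ± 0.23 (adjusted p = 0.171) corrected, neither of them called. Library totals without TMM called Itgam lower at 24 months, with a log2 fold change of -1.16.

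Itgam, Itgax and Itgad lie in a row on chromosome 7 of mm10, with 1386 bp between Itgam and Itgax and 3719 bp between Itgax and Itgad. At 24 against 3 months Itgax and Itgad were both called higher in both fits, while Itgam was called in neither. The difference between Itgam and Itgax was not itself tested. The RefSeq promoter windows of Itgam and Itgax, 250 bases before to 50 after the start on build GRCm38.p6, are shown to compare these neighbours. Capitals mark GAGGAA on either strand (TTCCTC on the other), the core bound by PU.1 in myeloid cells. They are chr7:128062390-128062689 (+) for Itgam and chr7:128129300-128129599 (+) for Itgax.
Itgam: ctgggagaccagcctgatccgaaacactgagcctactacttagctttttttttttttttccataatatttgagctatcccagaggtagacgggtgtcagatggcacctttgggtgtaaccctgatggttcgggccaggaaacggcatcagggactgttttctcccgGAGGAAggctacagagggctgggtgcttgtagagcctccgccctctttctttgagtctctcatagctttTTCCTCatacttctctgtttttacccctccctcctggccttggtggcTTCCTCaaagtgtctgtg
Itgax: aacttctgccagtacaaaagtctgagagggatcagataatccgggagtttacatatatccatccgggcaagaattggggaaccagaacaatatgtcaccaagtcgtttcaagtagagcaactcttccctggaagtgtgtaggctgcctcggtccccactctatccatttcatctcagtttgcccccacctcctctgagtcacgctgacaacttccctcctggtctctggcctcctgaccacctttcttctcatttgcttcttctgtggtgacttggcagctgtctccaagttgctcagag
The Itgam window held 3 matches, 1 on its own strand and 2 on the other, and the Itgax window held 0. At least 1 was held by 28.3% of the 32851 promoter windows of that set. A match is a description of these letters and not a binding site. There were windows for 32 of the 50 members.

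Leukocyte marker lists differed in direction from one another. Beside this and every later marker list, all tested genes gave 38.2% called higher and 44.6% lower at 24 against 3 months. After correction these shares were 30% and 26.6%. Of 7 pan-leukocyte markers 4 were called higher and 3 lower at 24 against 3 months, or 5 and 0 after correction, and their sum was 1688 to 5176 CPM at 24 months and 664 to 757 CPM at 3 months. Of 9 monocyte and interstitial macrophage markers 7 were higher and 1 lower (8 and 1 corrected), with sums of 1289 to 1769 CPM at 24 months and 336 to 351 CPM at 3 months. The 8 T cell markers gave 5 higher and 0 lower (6 and 0 corrected), with sums of 144 to 269 CPM at 24 months and 48.7 to 65.9 CPM at 3 months. Among 10 alveolar macrophage markers 2 were higher and 7 lower (2 and 6 corrected), with sums of 516 to 738 CPM at 24 months and 850 to 1011 CPM at 3 months. Of 8 neutrophil markers 1 was higher and 1 lower (1 and 0 corrected). The 6 B cell markers gave 5 higher and 0 lower (3 and 0 corrected), with sums of 243 to 665 CPM at 24 months and 67.4 to 135 CPM at 3 months. Of 5 NK cell markers 1 was higher and 4 lower (0 and 2 corrected), and of 6 dendritic cell markers 1 was higher and 3 lower (0 and 1 corrected). Dendritic cell sums were 59.5 to 73.5 CPM at 24 months and 82.4 to 98.8 CPM at 3 months. None of these lists had a marker at 0 in every library, and the part of leukocyte numbers in the integrin values was not tested.

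The 4 RGD-binding alpha subunits split, where all tested genes gave 38.2% higher and 44.6% lower, or 30% and 26.6% corrected. Itga2b, the platelet alpha IIb chain, had 61.7, 69.5 and 33.8 CPM at 3 months, 33.7, 54.9 and 37.6 CPM at 6 months, 44.7, 33.1 and 102 CPM at 12 months and 259, 713 and 563 CPM at 24 months. The 24-month mice were higher than all others but ranged widely, and mouse 3 led the 12-month group. Its log2 fold change at 24 against 3 months was 3.22 ± 0.45 (SE; adjusted p = 7.9e-06) by edgeR and 1.28 ± 0.48 (adjusted p = 0.0394) corrected, and the corrected call held in 1 of 6 fits that left out a mouse. Of 6 platelet and megakaryocyte markers 3 were called higher and 0 lower, none after correction, and they summed to 122 to 354 CPM at 24 months and 73.8 to 140 CPM at 3 months, with none at 0 throughout. The part of platelets in the Itga2b values was not tested.

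Itga5, the fibronectin receptor chain, had 55.9, 55.7 and 55.7 CPM at 3 months, 59.3, 78.9 and 61.8 CPM at 6 months, 83.4, 74.6 and 90.8 CPM at 12 months and 217, 282 and 697 CPM at 24 months, rising without overlap at 24 months. The fitted log2 fold change was 2.84 ± 0.34 (SE; adjusted p = 2.05e-06) by edgeR and 0.90 ± 0.18 (adjusted p = 0.000653) corrected. Itgav, the alpha v chain of several vitronectin and TGF-beta binding receptors, had 43.0, 51.5 and 54.6 CPM at 3 months, 47.3, 43.2 and 47.0 CPM at 6 months, 25.7, 22.6 and 45.6 CPM at 12 months and 7.08, 6.83 and 4.68 CPM at 24 months. It fell at 24 months in all mice, with a log2 fold change of -2.99 ± 0.27 (SE; adjusted p = 1.75e-07) by edgeR and -0.61 ± 0.18 (adjusted p = 0.00964) corrected. Itga8, a receptor for nephronectin on interstitial cells, had 176, 214 and 196 CPM at 3 months, 181, 202 and 197 CPM at 6 months, 124, 84.7 and 198 CPM at 12 months and 31.7, 34.4 and 13.7 CPM at 24 months. The oldest mice were again below all others, but the log2 fold change of -2.87 ± 0.34 (SE; adjusted p = 1.61e-06) by edgeR became -0.18 ± 0.17 (adjusted p = 0.39) after correction, which was not called.

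All 3 laminin-binding alpha subunits were called in both fits. Of all tested genes 38.2% were called higher and 44.6% lower, or 30% and 26.6% corrected. Itga3, the alpha subunit with the highest FPKM, had 285, 345 and 335 CPM at 3 months, 345, 462 and 336 CPM at 6 months, 454, 430.4 and 448 CPM at 12 months and 1158, 1357 and 2823 CPM at 24 months. On the log2 scale its fold change was 2.47 ± 0.30 (SE; adjusted p = 1.76e-06) by edgeR and 0.56 ± 0.13 (adjusted p = 0.0016) corrected, and it made up 47.7, 38.3 and 52.8% of alpha-subunit FPKM at 24 months, against 26.4, 25.4 and 27.3% at 3 months. Itga7, a laminin receptor best known in muscle, had 23.0, 21.5 and 21.0 CPM at 3 months, 26.6, 25.0 and 22.4 CPM at 6 months, 27.8, 31.9 and 42.3 CPM at 12 months and 65.8, 82.7 and 252 CPM at 24 months, with mouse 3 highest at 24 months. Its log2 fold change was 2.61 ± 0.39 (SE; adjusted p = 1.43e-05) by edgeR and 1.5 ± 0.41 (adjusted p = 0.00793) corrected. Of 7 smooth muscle and pericyte markers 5 were higher and 1 lower (3 and 1 corrected), and they summed to 1420 to 2921 CPM at 24 months and 536 to 785 CPM at 3 months. Of 3 tested skeletal muscle markers 2 were higher and 0 lower (1 and 0 corrected), and the 6 listed markers summed to 20.0 to 352 CPM at 24 months and 7.26 to 10.5 CPM at 3 months. They too were highest in 24-month mouse 3, where Acta1, skeletal actin, had 196 CPM and Ckm, muscle creatine kinase, 137 CPM, while the other 24-month mice had 0.576 and 0.80 CPM of Acta1 and 29.1 and 14.8 CPM of Ckm. Without that mouse Itga7 was still called higher in the uncorrected fit, with a log2 fold change of 1.77 (edgeR adjusted p = 3.09e-07). That fit does not bear on the corrected call of Itga7. The part of smooth and skeletal muscle cells in the Itga7 values was not tested.

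Itga6 fell where its relatives rose. It had 151, 206 and 173 CPM at 3 months, 153, 161 and 167 CPM at 6 months, 94.1, 75.4 and 131 CPM at 12 months and 26.0, 27.9 and 9.13 CPM at 24 months, and the 12-month mice also lay below every younger mouse. The log2 fold change at 24 against 3 months was -3.06 ± 0.34 (SE; adjusted p = 9.47e-07) by edgeR and -1.29 ± 0.22 (adjusted p = 0.000217) corrected. Its hemidesmosome partner Itgb4 was called in the opposite direction in both fits. This is a comparison of 2 calls, since the difference between the genes' fold changes was not tested.

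**Figure D3:**
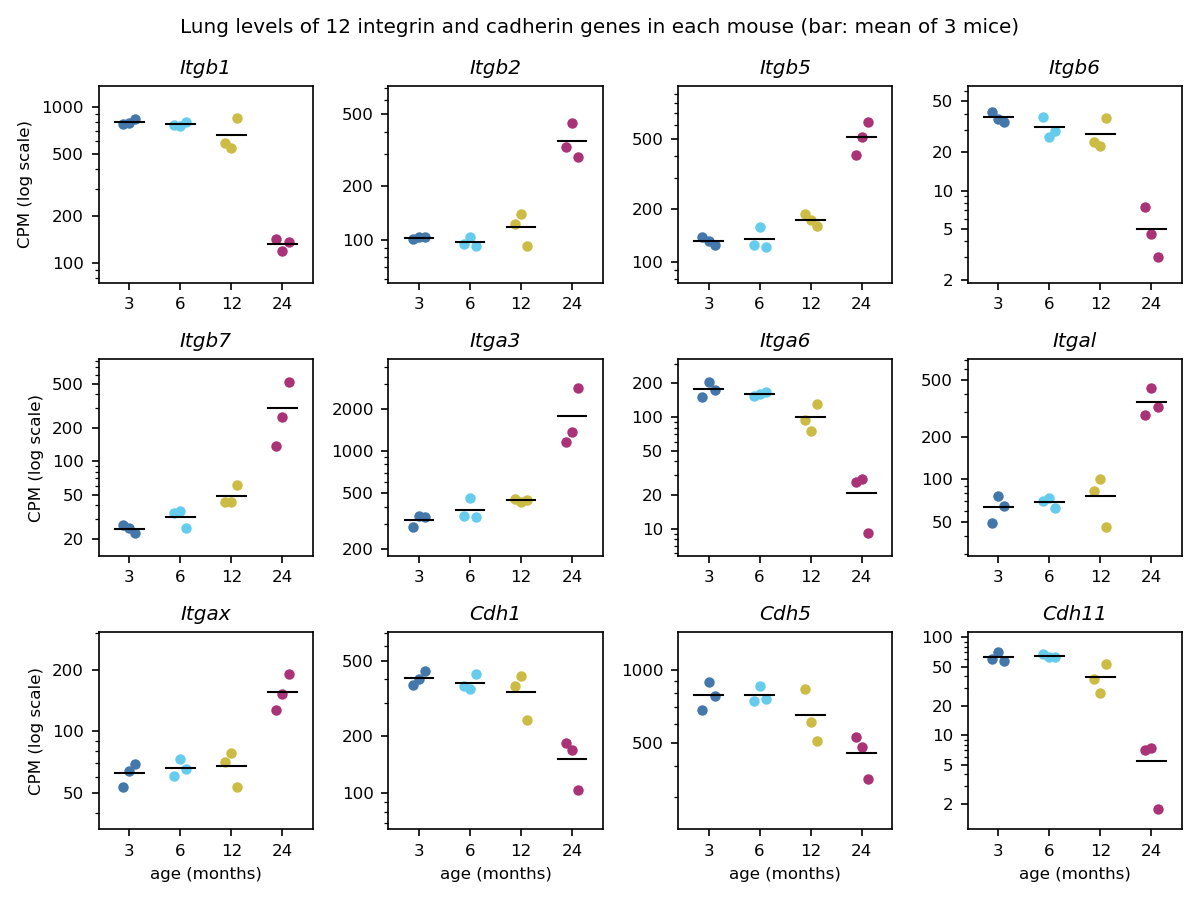
Levels (CPM on TMM library sizes, log scale) of 12 integrin and cadherin genes in each mouse by age in months; points are mice and bars the mean of 3 mice. Points of 24 months lie apart from those of 3 months in every panel, below them for Itgb1, Itgb6, Itga6, Cdh1, Cdh5 and Cdh11 and above them for the other 6 genes.

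Of the 4 collagen-binding alpha subunits none was called after correction, which called 30% of all tested genes higher and 26.6% lower. Itga1, on smooth muscle and other mesenchymal cells, had 49.5, 63.8 and 53.3 CPM at 3 months, 54.5, 50.1 and 57.4 CPM at 6 months, 32.7, 26.9 and 56.2 CPM at 12 months and 10.04, 9.74 and 3.28 CPM at 24 months, and its log2 fold change was -2.83 ± 0.35 uncorrected and 0.01 ± 0.17 corrected. Itga2, the alpha 2 chain, had 2.73, 11.9 and 7.78 CPM at 3 months, 6.22, 5.80 and 5.44 CPM at 6 months, 2.42, 2.82 and 4.55 CPM at 12 months and 1.07, 0.945 and 0 CPM at 24 months, with a log2 fold change of -3.34 ± 0.60 uncorrected and -0.76 ± 0.56 corrected. In both genes the oldest mice were below all others. The 2 genes are neighbours on chromosome 13, 26037 bp apart. Itga10 had 3.56, 3.03 and 3.94 CPM at 3 months, 3.85, 3.53 and 5.03 CPM at 6 months, 2.51, 2.38 and 2.10 CPM at 12 months and 6.01, 3.49 and 10.5 CPM at 24 months, with overlap between 24 and 3 months. Itga11 had 2.44, 4.22 and 3.26 CPM at 3 months, 4.18, 3.28 and 2.97 CPM at 6 months, 3.07, 3.92 and 2.10 CPM at 12 months and 5.60, 6.11 and 6.79 CPM at 24 months, without overlap. Both were called higher without correction, by 0.91 and 0.89 on the log2 scale, and stood at 0.04 and -0.52 corrected. Of 6 fits that left out a mouse, 2 kept the call of Itga10 and 4 that of Itga11, whose log2 fold change ran from 0.49 to 1.15 with an edgeR adjusted p of up to 0.143.

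Itga4, which with beta 1 or beta 7 binds VCAM-1 and MAdCAM-1, had 15.1, 22.8 and 19.2 CPM at 3 months, 20.1, 16.8 and 15.3 CPM at 6 months, 10.3, 8.57 and 17.8 CPM at 12 months and 3.95, 4.87 and 1.41 CPM at 24 months. The oldest mice were lowest. It was called lower without correction, with a log2 fold change of -2.44 ± 0.36 (SE; adjusted p = 1.41e-05) by edgeR, and stood at 0.42 ± 0.22 (adjusted p = 0.113) corrected. Itga9, a receptor for tenascin-C, had 110.3, 159 and 158 CPM at 3 months, 102, 114 and 122 CPM at 6 months, 86.8, 90.5 and 75.2 CPM at 12 months and 66.1, 74.7 and 69.0 CPM at 24 months. Its 24-month and 3-month values did not overlap, and the 12-month mice already lay below the 3-month mice. The log2 fold change at 24 against 3 months was -1.03 ± 0.19 (SE; adjusted p = 0.000143) by edgeR and -0.47 ± 0.12 (adjusted p = 0.00452) corrected. Itgbl1 had 9.39, 10.5 and 9.20 CPM at 3 months, 7.26, 7.81 and 7.01 CPM at 6 months, 5.84, 4.86 and 5.95 CPM at 12 months and 1.73, 1.16 and 1.05 CPM at 24 months. Its 24-month mice were below all others, with a log2 fold change of -2.86 ± 0.25 uncorrected, which was called, and -0.05 ± 0.27 corrected, which was not.

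The 2 leading cadherins were lower at 24 months in both fits, and more so after correction. Cdh1, or E-cadherin, had 372, 398 and 439.6 CPM at 3 months, 365, 354 and 426 CPM at 6 months, 366, 414 and 244 CPM at 12 months and 184, 169 and 104 CPM at 24 months. All 24-month mice lay below all others, although mouse 3 of the 12-month group came near. The log2 fold change at 24 against 3 months was -1.40 ± 0.25 (SE; adjusted p = 7.99e-05) by edgeR and -1.78 ± 0.16 (adjusted p = 7.93e-07) corrected. Cdh5, or VE-cadherin, had 684, 888 and 777 CPM at 3 months, 740.1, 859.6 and 754 CPM at 6 months, 832, 606 and 511 CPM at 12 months and 527, 479 and 353 CPM at 24 months. Here mouse 3 of the 12-month group lay within the 24-month range. The fitted log2 fold change was -0.79 ± 0.23 (SE; adjusted p = 0.00443) by edgeR and -1.40 ± 0.16 (adjusted p = 4.63e-06) corrected. Cdh5 held 64.6, 63.0 and 60.2% of the summed cadherin FPKM at 24 months and 58.8, 62.9 and 58.6% at 3 months, and Cdh1 held 20.3, 19.9 and 15.9% at 24 months and 28.8, 25.4 and 29.8% at 3 months. That sum was 76.8 to 169 FPKM at 24 months and 338 to 426 FPKM at 3 months.

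Markers of the cells that carry these cadherins went several ways. Over all tested genes 38.2% were called higher and 44.6% lower, or 30% and 26.6% after correction. Of 7 pan-epithelial markers 5 were called higher and 2 lower, or 1 and 1 after correction, and their sum was 2487 to 3427 CPM at 24 months and 1392 to 1629 CPM at 3 months. Of 8 endothelial markers 4 were higher and 4 lower, or 1 and 1 after correction, and their sum was 6355 to 14403 CPM at 24 months and 2710 to 2867 CPM at 3 months. Among them Vwf, the von Willebrand factor, had an uncorrected log2 fold change of 3.35 ± 0.34, whereas the angiopoietin receptor Tek had one of -3.11 ± 0.33, also uncorrected. No marker of either list was at 0 throughout. The part of epithelial and endothelial cell numbers in the cadherin values was not tested.

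Cdh11, a mesenchymal cadherin, fell furthest of the cadherins without correction. It had 59.97, 69.7 and 56.5 CPM at 3 months, 66.5, 63.0 and 62.4 CPM at 6 months, 37.0, 27.0 and 52.9 CPM at 12 months and 7.08, 7.34 and 1.76 CPM at 24 months. The oldest mice were far below all others, and its log2 fold change was -3.49 ± 0.37 (SE; adjusted p = 6.8e-07) by edgeR and -1.16 ± 0.23 (adjusted p = 0.000586) corrected. Of 7 fibroblast markers 2 were higher and 5 lower (2 and 2 corrected), against 38.2% and 44.6% of all genes (30% and 26.6% corrected). They summed to 1064 to 1910 CPM at 24 months and 1197 to 1377 CPM at 3 months. The part of fibroblasts in the Cdh11 values was not tested. Cdh2, or N-cadherin, had 6.53, 5.85 and 4.47 CPM at 3 months, 8.14, 6.15 and 5.57 CPM at 6 months, 3.72, 2.60 and 4.79 CPM at 12 months and 1.48, 1.09 and 0.820 CPM at 24 months. Again the oldest mice were lowest, but only the uncorrected log2 fold change of -2.29 was called, and the corrected one was 0.18. Cdh13, the lipid-anchored T-cadherin, had 57.0, 69.8 and 70.2 CPM at 3 months, 58.6, 71.0 and 59.8 CPM at 6 months, 68.9, 70.7 and 34.3 CPM at 12 months and 56.9, 43.8 and 19.9 CPM at 24 months. The highest 24-month value lay just under the lowest 3-month one. Its log2 fold change of -0.70 ± 0.32 (SE; adjusted p = 0.0545) by edgeR was not called, nor was that of 0.17 ± 0.22 (adjusted p = 0.519) corrected, though library totals without TMM called it lower, at -1.34.

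Cdh3 and Cdh26, an epithelial pair, were higher in both fits. Cdh3, or P-cadherin, had 1.41, 1.14 and 1.84 CPM at 3 months, 2.37, 1.46 and 2.56 CPM at 6 months, 2.29, 1.93 and 2.04 CPM at 12 months and 4.61, 4.29 and 10.5 CPM at 24 months. The oldest mice were above all others, with a log2 fold change of 2.13 ± 0.37 (SE; adjusted p = 6.55e-05) by edgeR and 1.68 ± 0.39 (adjusted p = 0.00197) corrected. It is the neighbour of Cdh1 on chromosome 8, 46442 bp away, and was called in the other direction. Of 4 airway basal markers, cells known for P-cadherin, 3 were higher and 1 lower, with none called after correction, and the sum was 11.7 to 190 CPM at 24 months and 6.64 to 7.57 CPM at 3 months. All genes gave 38.2% higher and 44.6% lower, or 30% and 26.6% corrected. The part of basal cells in the Cdh3 values was not tested. Cdh26 had 3.598, 1.45 and 3.00 CPM at 3 months, 5.72, 4.44 and 2.70 CPM at 6 months, 4.11, 10.4 and 8.05 CPM at 12 months and 9.30, 13.5 and 17.7 CPM at 24 months. The 24-month mice were above those of 3 and 6 months and overlapped those of 12 months, with a log2 fold change of 2.32 ± 0.41 (SE; adjusted p = 7.08e-05) by edgeR and 2.20 ± 0.43 (adjusted p = 0.000627) corrected.

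The remaining tested cadherins were low and their calls depended on the correction. Cdh16 had 13.2, 14.6 and 15.3 CPM at 3 months, 12.3, 18.7 and 15.7 CPM at 6 months, 21.1, 20.8 and 17.4 CPM at 12 months and 24.5, 27.8 and 30.1 CPM at 24 months, with the oldest mice highest, and was called higher without correction and lower with it, at 0.94 ± 0.20 and -0.51 ± 0.15 on the log2 scale. Cdh24 had 1.49, 2.11 and 1.26 CPM at 3 months, 1.54, 1.46 and 1.89 CPM at 6 months, 1.08, 1.22 and 0.700 CPM at 12 months and 1.23, 4.07 and 5.04 CPM at 24 months, with overlap, and stood at 1.06 ± 0.42 and -1.18 ± 0.37, with only 2 of 6 uncorrected fits that left out a mouse keeping its call. Cdh22 had 1.61, 1.94 and 1.53 CPM at 3 months, 1.71, 2.82 and 2.16 CPM at 6 months, 2.90, 3.10 and 4.38 CPM at 12 months and 4.44, 6.40 and 26.3 CPM at 24 months, mouse 3 of 24 months being highest, and its log2 fold change was 2.84 uncorrected and 0.29 corrected.

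Cdh23, a tip-link protein of hair cells, had 0.993, 1.36 and 1.21 CPM at 3 months, 1.10, 1.56 and 0.764 CPM at 6 months, 0.865, 1.16 and 1.63 CPM at 12 months and 1.89, 4.87 and 7.38 CPM at 24 months, with 1.96 uncorrected and 0.40 corrected. Cdh4, or R-cadherin, had 5.004, 7.65 and 5.58 CPM at 3 months, 6.00, 7.16 and 5.97 CPM at 6 months, 6.14, 5.97 and 3.97 CPM at 12 months and 10.04, 12.1 and 9.60 CPM at 24 months, with 0.80 uncorrected and -0.28 corrected. On TMM library sizes the oldest mice were highest in Cdh23 and Cdh4. Only the uncorrected values of Cdh22, Cdh23 and Cdh4 were called, and 4 of 6 fits that left out a mouse kept that of Cdh4. Library totals without TMM did not call Cdh4, at 0.07 on the log2 scale. Cdh19 reached at most 1.16 CPM and was not called in either fit. At 24 against 3 months it was called lower with library totals without TMM, at -2.06 on the log2 scale (edgeR adjusted p = 0.022), and without 3-month mouse 1, at -1.87 (edgeR adjusted p = 0.0436). Cdh6, Cdh7, Cdh8, Cdh9, Cdh10, Cdh12, Cdh15, Cdh17, Cdh18 and Cdh20 had too few reads to be tested. Cdh7 had 0 reads in all 12 libraries, and Cdh15 was the only one of the 10 to reach 1 CPM, at 1.05 CPM in 24-month mouse 3.

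GC content and direction went together in this family as in the whole table. The 21 members called higher had transcripts of 50.8 to 62.3% GC (median 55.1%), and the 16 called lower had 40.5 to 52.5% (median 45.2%). Across the 40 tested members Spearman's rho between GC content and log2 fold change at 24 against 3 months was 0.82 uncorrected and 0.17 corrected, against 0.82 and 0.09 across all genes. Genes of a library share its depth and preparation, so these values are a description. The correction takes out the smooth dependence on GC content, so the corrected 0.09 over all genes lies near 0 by construction. Cdh1, Cdh5, Itga9 and Itgae were lower at 24 months with 51.4 to 52.5% GC, and Itgax, Cdh26, Itgb3 and Cdh3 were higher with 50.8 to 52.1%. These 8 genes, picked after their values were seen, were called in both directions at nearly equal GC content, in both fits.

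**Figure D4:**
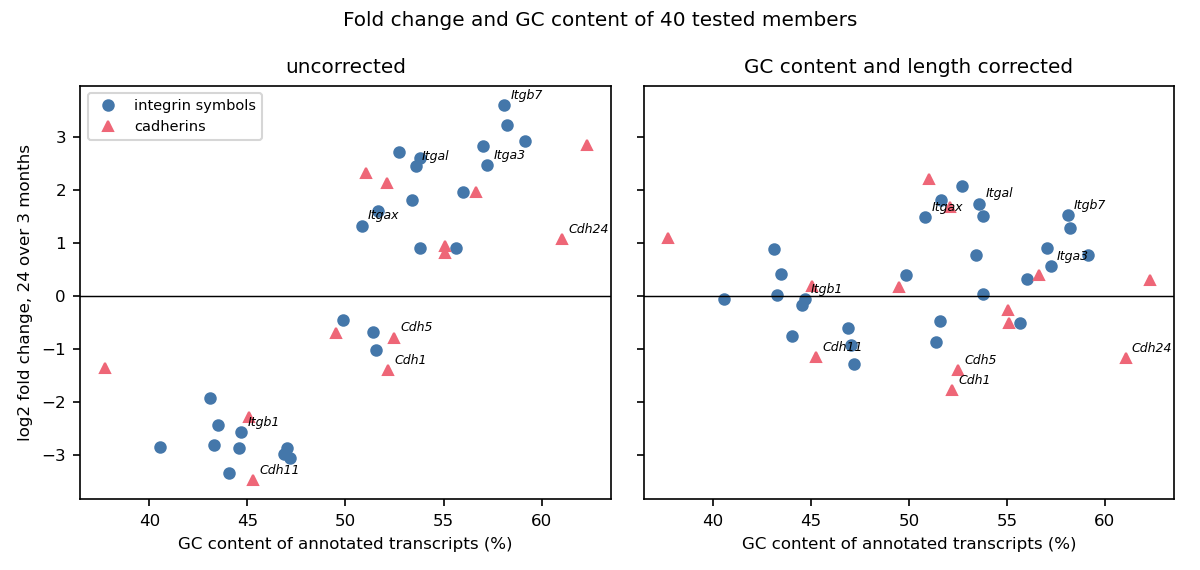
Log2 fold change, 24 over 3 months, of 40 tested members against the GC content of their annotated transcripts (%), left without and right with correction for GC content and gene length; circles are integrin symbols and triangles cadherins. On the left the points climb from Itgb1 to Itgb7, and on the right Cdh1 and Cdh5 are low and Itgal and Itgax high.

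The comparison of 24 with 12 months repeated much of this with other younger mice, but shares the 24-month mice with the one above. Called higher were 20 members and lower 14, against 37.3% and 42.5% of all tested genes, and after correction 8 were higher and 8 lower, against 21.5% and 21.3%. Members of at least 1 FPKM called higher in both fits were Itgb7, with a log2 fold change of 2.63 uncorrected and 0.94 corrected by edgeR, Itgb3 with 1.86 and 1.66, Itgb2 with 1.6 and 0.68, Itgal with 2.19 and 1.32, Itgax with 1.21 and 1.19, Itga2b with 3.09 and 1.48 and Itga5 with 2.26 and 0.53. Lower in both were Itgb6 with -2.44 and -0.90, Itgav with -2.32 and -0.53, Itga6 with -2.24 and -0.82, Cdh1 with -1.16 and -1.71, Cdh5 with -0.52 and -1.23 and Cdh11 with -2.82 and -0.88. For Cdh5 the uncorrected adjusted p by edgeR was 0.045, and 2 of 6 fits that left out a mouse kept the call. Cdh16 was called in opposite directions, at 0.47 uncorrected and -0.76 corrected. Itgb4, at 1.84 uncorrected and -0.11 corrected, was called only without correction.

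At 12 against 3 months the number of members called depended on whether the 24-month libraries entered the fit, being 4 with them and 14 without, both uncorrected. With them 2 members were called higher and 2 lower, against 6.3% and 8.87% of all tested genes, and 2 and 1 after correction, against 10.6% and 8.69%. The values of 12 months did not overlap those of 3 months in 18 of the 40 tested members, and in 44.4% of all tested genes. This comparison shares the 3-month mice with that of 24 months. Itgb4 averaged 57.1 ± 5.61 CPM at 12 months and 26.9 ± 4.93 CPM at 3 months (SD, n = 3 mice), a log2 fold change of 1.09 ± 0.29 (SE; edgeR adjusted p = 0.0256), or 0.88 ± 0.12 corrected (adjusted p = 0.000887). All 6 corrected fits that left out a mouse called it, and 2 of 6 uncorrected ones. Cdh26 averaged 7.54 ± 3.20 CPM at 12 months and 2.68 ± 1.11 CPM at 3 months, with 1.48 ± 0.40 (edgeR adjusted p = 0.0262), or 1.53 corrected (adjusted p = 0.0247). Its call held in 3 of 6 uncorrected and 2 of 6 corrected fits.

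Itga9 averaged 84.2 ± 8.01 CPM at 12 months and 143 ± 27.9 CPM at 3 months, with a log2 fold change of -0.76 ± 0.19 (edgeR adjusted p = 0.0205), and -0.20 corrected, not called. Itgbl1 averaged 5.55 ± 0.599 CPM at 12 months and 9.70 ± 0.707 CPM at 3 months, with -0.80 ± 0.21 (edgeR adjusted p = 0.0246), and -0.20 corrected, not called. Without 3-month mouse 2 none of the 4 was called, with edgeR adjusted p of 0.099 for Itgb4, 0.14 for Cdh26, 0.104 for Itga9 and 0.12 for Itgbl1. The correction added Cdh24, lower at -1.20 on the log2 scale (edgeR adjusted p = 0.0433), a call that no fit without one of the mice kept. A fit without the 24-month libraries, whose spread enters the other fits, called 8 members higher, Itgb4, Itgb7, Itga3, Itga5, Itga7, Itgad, Cdh22 and Cdh26, and 6 lower, Itga6, Itgav, Itga2, Itga9, Itgbl1 and Cdh11, against 19% and 17.1% of all genes. At 12 months the authors' deposited table held 7 members as higher and 6 as lower, against 13.7% and 13.5% of its genes with an adjusted p.

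At 6 against 3 months no member was called by edgeR, and 0 of 40 had an unadjusted p under 0.05. Over all genes 0% were called higher and 0% lower, or 0.00623% higher after correction, which called no member, 267 of 16042 genes had an unadjusted p under 0.05, and DESeq2 called 6 genes and 0 members. The authors' deposited table likewise held 0 members past its adjusted p of 0.05, against 0.101% of its genes higher and 0.0252% lower. The values of 6 and 3 months did not overlap in 4 of the 40 tested members, and in 10.9% of all tested genes. The medians of their log2 fold changes were 0.02 uncorrected and 0.04 corrected.

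Of 30 adaptors and kinases that work with integrins inside the cell 18 were called higher and 9 lower at 24 against 3 months, or 16 and 6 after correction. Over all genes the shares were 38.2% and 44.6%, or 30% and 26.6% after correction. The median log2 fold change of the 30 was 1.31 uncorrected and 0.44 corrected, against -0.29 and 0.01 over all genes. Parvb, beta-parvin, averaged 663 ± 192 CPM at 24 months and 106 ± 13.6 CPM at 3 months (SD, n = 3 mice), a log2 fold change of 2.64 ± 0.24 by edgeR and 1.19 corrected. Ptk2b, or Pyk2, averaged 297 ± 136 CPM at 24 months and 40.5 ± 4.20 CPM at 3 months (SD, n = 3 mice), a log2 fold change of 2.87 ± 0.29 and 2.10 corrected. Ptk2, or focal adhesion kinase, the close relative of Pyk2, averaged 15.2 ± 6.51 CPM at 24 months and 94.6 ± 3.14 CPM at 3 months (SD, n = 3 mice), a log2 fold change of -2.63 ± 0.26 and -0.64 corrected, so the 2 kinases were called in opposite directions in both fits. Rap1b, a GTPase that activates integrins, averaged 64.5 ± 5.72 CPM at 24 months and 231 ± 21.2 CPM at 3 months (SD, n = 3 mice), a log2 fold change of -1.84 ± 0.19 and 0.38 corrected, called only without correction. At 12 against 3 months 1 adaptor was higher and 3 were lower (6 and 0 corrected), among them Tns3 with -0.99 ± 0.30 and Vcl, vinculin, with -1.09 ± 0.34, neither called after correction.

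Of 31 tested integrin ligands 14 were higher and 13 lower at 24 months, or 5 and 11 after correction, and their median log2 fold change was 0.02 uncorrected and -0.07 corrected, beside the same shares and medians over all genes. Icam1, the ligand of LFA-1, averaged 1613 ± 715 CPM at 24 months and 336 ± 8.17 CPM at 3 months (SD, n = 3 mice), a log2 fold change of 2.27 ± 0.27 by edgeR and 1.57 corrected. Npnt, nephronectin, the ligand of alpha 8, averaged 149 ± 37.5 CPM at 24 months and 677 ± 84.8 CPM at 3 months (SD, n = 3 mice), a log2 fold change of -2.18 ± 0.24 and -1.84 corrected. Lama3, the laminin alpha 3 chain that hemidesmosomes bind, averaged 15.2 ± 6.95 CPM at 24 months and 180.3 ± 68.2 CPM at 3 months (SD, n = 3 mice), a log2 fold change of -3.56 ± 0.36 and -2.29 corrected, and Lama4, of vessel basement membranes, averaged 21.4 ± 3.96 CPM at 24 months and 92.7 ± 12.8 CPM at 3 months (SD, n = 3 mice), a log2 fold change of -2.12 ± 0.20 and -0.02 corrected. All but Lama4 were called in both fits. At 12 against 3 months 0 ligands were higher and 4 lower (2 and 5 corrected), led by the laminin chains Lamb1 with -1.17 ± 0.24, also called when corrected, and Lamc1 with -0.81 ± 0.20, which was not. Icam4 had 0 reads throughout.

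Of 22 tested catenins and junction partners 6 were higher and 16 lower at 24 months, or 6 and 10 after correction, and the median log2 fold change was -1.45 uncorrected and -0.29 corrected. All genes gave 38.2% higher and 44.6% lower, or 30% and 26.6% after correction, with medians of -0.29 and 0.01. Mllt4, or afadin, which links nectins to actin, averaged 19.3 ± 3.96 CPM at 24 months and 178 ± 27.3 CPM at 3 months (SD, n = 3 mice), a log2 fold change of -3.20 ± 0.22 by edgeR and -1.52 corrected. Ctnnal1, alpha-catulin, averaged 2.89 ± 0.709 CPM at 24 months and 21.2 ± 2.16 CPM at 3 months (SD, n = 3 mice), a log2 fold change of -2.85 ± 0.22 and -0.82 corrected. Pvrl3, or nectin 3, averaged 18.7 ± 4.56 CPM at 24 months and 116 ± 3.75 CPM at 3 months (SD, n = 3 mice), a log2 fold change of -2.63 ± 0.22 and 0.15 corrected, called only without correction. Ptprj, a junctional phosphatase, was called in opposite directions, with -1.83 ± 0.18 uncorrected and 0.41 ± 0.13 corrected. At 12 against 3 months 0 partners were higher and 3 lower (3 and 2 corrected), among them Ptprm with -0.70 ± 0.21 and Ctnnal1 with -0.60 ± 0.19. The 2 tested desmosomal cadherins, Dsg2 and Dsc2, were called lower without correction, at -2.84 ± 0.40 and -2.24 ± 0.49, and neither was called with it.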

How the data were processed

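The deposited table held 1 row per mouse gene. Its counts per library were whole reads assigned to genes by the authors, and these counts were the only values tested. FPKM per library was computed by the authors, and recomputing it from the reads and gene lengths gave the deposited FPKM. It was used only for levels between genes and for shares within a class. The authors' deposited log2 fold changes came with their adjusted p-values, for 3 comparisons against 3 months. A further 10 columns of age or comparison means were not used. Per the submitters' processing notes the tools were TopHat, STAR 2.5 and HTSeq 0.6.1, whose roles are left unsaid, on genome build mm10. For strandedness, overlapping genes, batches and sequencing dates, nothing is stated in those notes or the labels.

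Genes passing filterByExpr over the 4 ages were kept, 16042 in all, which included 40 of the 50 members. A member that passed only through the age at which it is high had to differ, so counts over tested members are descriptions. The test was edgeR's quasi-likelihood F test (robust dispersions) of TMM-scaled counts of all 12 libraries (edgeR 4.0.16, limma 3.58.1, DESeq2 1.42.0, R 4.3.3), with Benjamini-Hochberg adjustment over all genes and calls at an adjusted p under 0.05. The SE is the fold change over the square root of F. CPM used TMM library sizes. For the correction, each library's log2 CPM, less the gene's mean, was smoothed on GC content and log2 gene length (mgcv 1.9.3), and the smooth entered the fit as an offset. GC content was available for 97.8% of genes and all 50 members. Genes without it had an offset of 0. The script was tested on simulated counts.

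Each library was 1 mouse, and the p-values measure the spread between mice. Same-numbered mice of different ages did not deviate together, as the paragraph on the processing shows, so numbers were not treated as pairs. Gene members, lists and tests were chosen with earlier results of these data known. Values in all 12 libraries are given for members with a mean of at least 1 FPKM or called in a comparison other than 24 against 3 months. From each partner list up to 4 genes with the smallest p at 24 against 3 months and 2 at 12 against 3 months were named. Alternatives were RLE size factors, library totals, other filters on low counts, limma voom, DESeq2, each comparison's mice alone, a fit without the 24-month libraries, the mouse number as a block, GC offsets and leaving out each mouse. Library totals and the corrected fits that leave out a mouse were chosen after seeing the data.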

Additional observations from a re-analysis of the deposited data

How the results depend on the processing

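At 24 against 3 months 21 members were called higher and 16 lower. GC content and gene length correction left 14 and 10, and GC content alone left 10 lower. Leaving out each mouse gave 17 to 21 higher and 15 to 19 lower, and corrected fits gave 12, 13 or 14 higher and 9, 10, 11 or 12 lower. At 24 against 12 months the 20 higher and 14 lower became 11 and 9 with GC content, 8 and 8 with GC content and length, 19 to 21 and 13 to 16 without a mouse, and 5 (without 12-month mouse 1 or 2), 8, 9 or 10 higher and 7, 8 or 10 lower in corrected fits without one. At 12 against 3 months the 2 higher and 2 lower became 2 and 1 when corrected, 8 and 6 without the 24-month libraries, 6 higher with those 6 mice alone, 0 to 2 and 0 to 4 without a mouse (0 and 0 without 3-month mouse 2, 3-month mouse 3 or 12-month mouse 2), and 1 or 2 higher and 0 or 1 lower in corrected fits without one.

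Signs of called log2 fold changes at 24 against 3 months turned under correction for GC content alone and then with length: Cdh16 at -0.35 and -0.51, Cdh24 at -1.04 and -1.18, Cdh4 at -0.46 and -0.28, Itga11 at -0.52 and -0.52, and Itgb8 at 0.47 and 0.89. With GC content alone Itga10 stood at -0.053. With both Cdh2 stood at 0.18, Itga1 at 0.0095 and Itga4 at 0.42. At 24 against 12 months Cdh16 stood at -0.62 and -0.76, and at -0.15 with library totals. The cause of these turns was not tested beyond the correction itself.

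Same-numbered mice of different ages did not deviate together, with a median r of -0.05 over 18 pairs (-0.25 to 0.19), of which 4 were over 0.1. With the mouse number as a block 21 members were called higher and 17 lower at 24 against 3 months, 20 and 13 at 24 against 12, 2 and 2 at 12 against 3, and 0 and 0 at 6 against 3. Block and correction together gave 13 and 10, 7 and 8, 3 and 1, and 0 and 0. In that fit the log2 fold changes that turned at 24 against 3 months were Cdh16 at -0.50, Cdh2 at 0.17, Cdh24 at -1.21, Cdh4 at -0.29, Itga1 at 0.0021, Itga10 at -0.020, Itga11 at -0.52, Itga4 at 0.39 and Itgb8 at 0.88, and Cdh16 at -0.76 at 24 against 12 months.

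Scaling mattered too. Of all genes called at 24 against 3 months 33.1% were higher with library totals (4230 higher, 8544 lower) and 53.0% after correction (4809 and 4267), against 6128 and 7149 with TMM. With library totals 16 members were higher and 19 lower, and at 24 against 12 months 17 and 17. Members no longer called higher at 24 against 3 months were Cdh4 at 0.07, Cdh16 at 0.19, Cdh24 at 0.25, Itga10 at 0.09 and Itga11 at 0.14. RLE size factors moved the median of all genes by 0.13. At 12 against 3 months genes called numbered 487 higher and 1141 lower with library totals, 602 and 985 with the block, 1584 and 1912 with DESeq2, 1699 and 1394 corrected, 3021 and 2727 without the 24-month libraries and 72 and 230 without 3-month mouse 2, against 1010 and 1423. With 3 mice per age, members under 1 CPM rested on few reads, and small differences among them were not detectable at this depth.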
